A study of Mus musculus with 12 samples.

Results

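Loss of Brg1 in the immature, MHC class II low fraction of medullary thymic epithelial cells (mTEClo) was examined on 2 of the series' 12 arrays. These are the single Brg1-/- mTEClo array and the single Brg1+/+ mTEClo array, which carry the same replicate number and were chosen by genotype and cell fraction as labelled. Both are labelled as RNA of C57BL/6 mice aged 4 weeks, a strain label that 1 gene described below goes against. The other 10 arrays serve as reference here: Aire+/+ and Aire-/- mTEClo with 1 array each, and Brg1+/+, Brg1-/-, Aire+/+ and Aire-/- cells of the MHC class II high fraction (mTEChi) with 2 arrays each. Thymic stromal cells were sorted as DAPI-negative, CD45-negative, Epcam-positive, UEA-binding and Ly51-low cells before the fractions were split by MHC class II. The way Brg1 was deleted, the cells in which it was deleted and the number of mice behind an array are not given in the sources used here. All levels are log2 of the deposited intensities, so a difference of 1 is a 2-fold difference, and 22154 genes had a value.

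Medullary thymic epithelial cells display to developing T cells many genes that are otherwise restricted to peripheral tissues. mTEClo are a mixed fraction that holds precursors of the mature mTEChi, cells that secrete the chemokine Ccl21, and post-Aire cells that take on features of skin, tuft or secretory epithelia. Aire, the transcriptional regulator behind much of the peripheral gene expression, is mainly a protein of mTEChi. Brg1, encoded by Smarca4, is an ATPase of the SWI/SNF complexes, which use ATP to slide or evict nucleosomes and so make promoters and enhancers accessible.

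With 1 array a side there is no replicate of this comparison, so a spread had to be borrowed. The labels do not say that the 2 arrays of an mTEChi group come from separate mice, so their spread may be technical. A gene was counted as beyond the replicate range where it differed at least 2-fold between the mTEClo arrays and by more than its largest difference between the 2 arrays of any of the 4 mTEChi groups. limma has to assume that a lone mTEClo array carries the same spread as the mTEChi groups. Both mTEClo arrays carry the same replicate number, so a shift shared by number widens the borrowed spread but not the mTEClo difference. The limma SEs hold this shift unless the replicate number is fitted as a block.

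The arrays showed mTEC material on both sides of the comparison. Epcam was at 9.19 in Brg1+/+ and 9.15 in Brg1-/- mTEClo, and Krt14, a keratin of basal epithelia, at 11.89 and 11.87. Aire was at 6.53 and 6.82 in Brg1+/+ and Brg1-/- mTEClo and between 7.96 and 9.50 on the 4 mTEChi arrays of the Brg1 line. The 4 mTEClo arrays correlated over genes at r = 0.968 to 0.974, and the Brg1 pair at r = 0.972. Array medians of the whole series lay between 5.07 and 5.32.

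Smarca4 itself lay a little above the array medians, and its difference in mTEClo was small. Its level was 5.95 in Brg1+/+ and 5.47 in Brg1-/- mTEClo, beside 6.40 and 6.11 in Aire+/+ and Aire-/- mTEClo. In mTEChi it was 6.13 and 6.89 on the Brg1+/+ arrays and 5.88 and 5.44 on the Brg1-/- arrays, so the genotypes did not overlap there. On the mTEChi arrays of the Aire line it was between 6.15 and 6.53. The lowest values of the whole series were thus those of the Brg1-/- arrays. The Brg1-/- array was the lowest of the 4 mTEClo arrays, by a difference of -0.48 from Brg1+/+ (limma SE 0.468, adjusted p = 1.0), which is within the gene's largest replicate difference of 0.76. The probe set gives 1 value for the whole transcript and the deleted stretch is not known here, so this value is no check of the genotype. Of the 50 genes that flank Smarca4 in gene order on chromosome 9, 25 on each side, 2 differed 2-fold (Icam4 by 1.21 and Swsap1 by 1.48), and their median was 0.09.

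H2-Ea, the alpha chain of the class II molecule I-E, went against the labelled strain on some arrays. C57BL/6 mice are known to carry an H2-Ea allele that is not transcribed. H2-Ea was at 10.11 on the Brg1-/- mTEClo array and at 4.35, 3.98 and 4.20 on the Brg1+/+, Aire+/+ and Aire-/- mTEClo arrays. In mTEChi it was at 11.32 and 11.60 on the Brg1-/- arrays, at 4.33 and 11.42 on the Brg1+/+ arrays, and between 4.55 and 5.89 on the 4 arrays of the Aire line. High and low values therefore did not overlap, and the Brg1+/+ group held one of each.

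The difference of 5.76 between the mTEClo arrays was the largest of all 22154 genes, yet it lay within the replicate range because the Brg1+/+ mTEChi arrays differed by 7.09. The other class II genes showed no such pattern: H2-Eb1 was at 10.92 and 11.12, H2-Aa at 10.31 and 10.32, and H2-Ab1 at 12.59 and 12.45 in Brg1+/+ and Brg1-/- mTEClo. None of the 50 genes flanking H2-Ea on chromosome 17 differed 2-fold between the mTEClo arrays, and their differences ran from -0.79 to 0.55. H2-Ea was singled out after its values were seen. Whether the strain background of these arrays differs, and what part that has in the other differences, was not tested, and no value of this comparison can be given without the Brg1-/- mTEClo array.

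**Figure D1:**
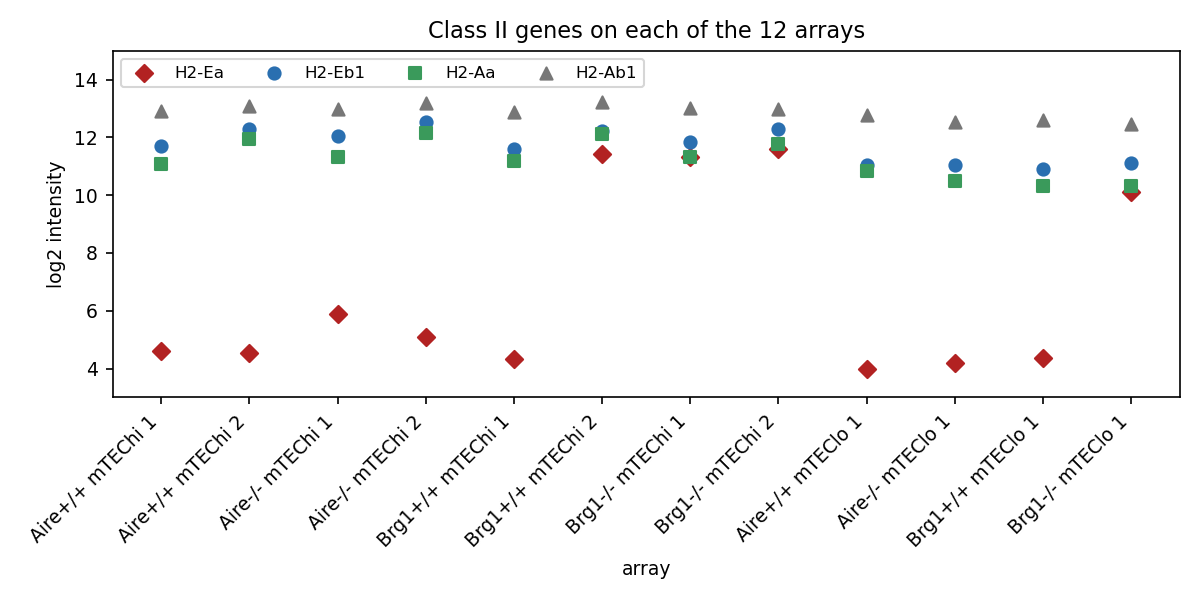
log2 intensity (y axis) of H2-Ea and of the class II genes H2-Eb1, H2-Aa and H2-Ab1 on each of the 12 arrays (x axis), 1 point per gene and array. H2-Ea stands at 10.11 to 11.60 on the 3 Brg1-/- arrays and 1 Brg1+/+ mTEChi array and at 3.98 to 5.89 on the other 8, while the other class II genes stay above 10 throughout.

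About as many genes were higher as lower in Brg1-/- mTEClo, and no gene passed a test. Between the arrays, 281 genes were at least 2-fold lower in Brg1-/- (1.27% of the 22154) and 325 at least 2-fold higher (1.47%). Of these, 210 lower (0.948%) and 237 higher genes (1.07%) were beyond the replicate range, and the other 159 lay within it. Without the Brg1+/+ mTEChi pair, whose arrays disagree in H2-Ea, the counts were 223 and 259. limma called 0 genes (0.0%) at a Benjamini-Hochberg adjusted p under 0.05, with a smallest adjusted p of 1.0, and 382 genes had an unadjusted p under 0.05 where 1108 would be expected with no difference. With the replicate number as a block it also called 0, with a smallest adjusted p of 0.157 and 1172 genes at an unadjusted p under 0.05.

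The size of this comparison was that of other pairs of mTEClo arrays. The SD of the difference over genes was 0.408, and between the wild-type arrays of the lines, Brg1+/+ against Aire+/+ mTEClo, it was 0.411, with 342 genes 2-fold lower and 230 higher. Aire-/- against Aire+/+ mTEClo gave 347 lower and 130 higher. Brg1-/- against the other wild type, Aire+/+ mTEClo, gave 295 lower and 222 higher. The 2 arrays of an mTEChi group differed more, at 1885 to 3445 genes 2-fold either way, and those differences were shared between groups by array number. The 606 genes that differed 2-fold by genotype in mTEClo thus stand beside 572 between the wild-type arrays, which differ in line as well as in sample.

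**Figure D2:**
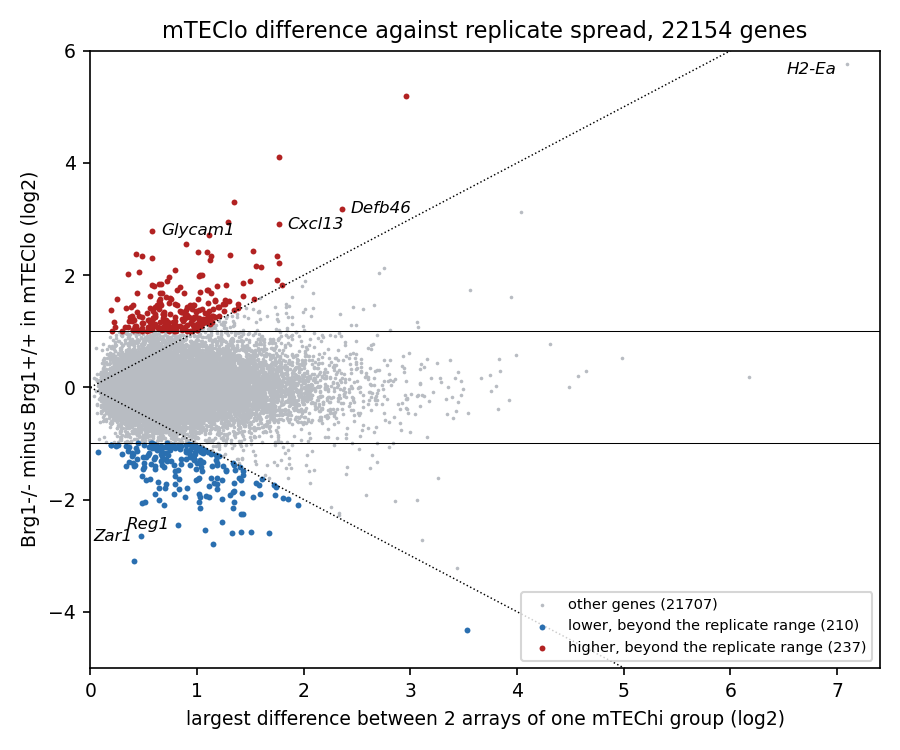
Difference between Brg1-/- and Brg1+/+ in mTEClo (y axis, log2) against the largest difference between the 2 arrays of any mTEChi group (x axis, log2), 1 point per gene, with lines at 2-fold and dotted lines where both are equal in size. The 210 lower and 237 higher genes beyond the replicate range form a thin rim, and H2-Ea, at 5.76, lies below the dotted line at a replicate difference of 7.09.

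Which array stood apart differed by direction. Among the 210 lower genes, the Brg1-/- array was at least 2-fold below all 3 other mTEClo arrays for 22 (10.5%), while the Brg1+/+ array was at least 2-fold above all 3 others for 63. Among the 237 higher genes, the Brg1-/- array was at least 2-fold above all 3 others for 41 (17.3%) and the Brg1+/+ array 2-fold below all 3 for 31 (13.1%). Il9, a cytokine gene, shows a wild-type array that is apart: it was at 6.80 in Brg1+/+ and at 4.22, 3.73 and 4.11 in Brg1-/-, Aire+/+ and Aire-/- mTEClo. Ugt2b5, a glucuronosyltransferase gene, shows the same on the low side, at 2.00 in Brg1+/+ and 6.10, 5.53 and 3.92 on the other arrays in that order. To leave out genes where only the wild-type array was apart, the Brg1-/- array also had to lie at least 2-fold beyond Aire+/+ mTEClo on the same side. That held for 57 lower (0.257% of all genes) and 69 higher genes (0.311%), of which 43 and 46 were left once predicted genes, clone names, small RNAs and olfactory or vomeronasal genes were set aside. The 15 largest of these each way were named. Among them, Defb46 still had a Brg1+/+ array that stood apart. It was at 3.58 there, against 5.09, 5.28 and 6.76 in Aire+/+, Aire-/- and Brg1-/- mTEClo.

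**Figure D3:**
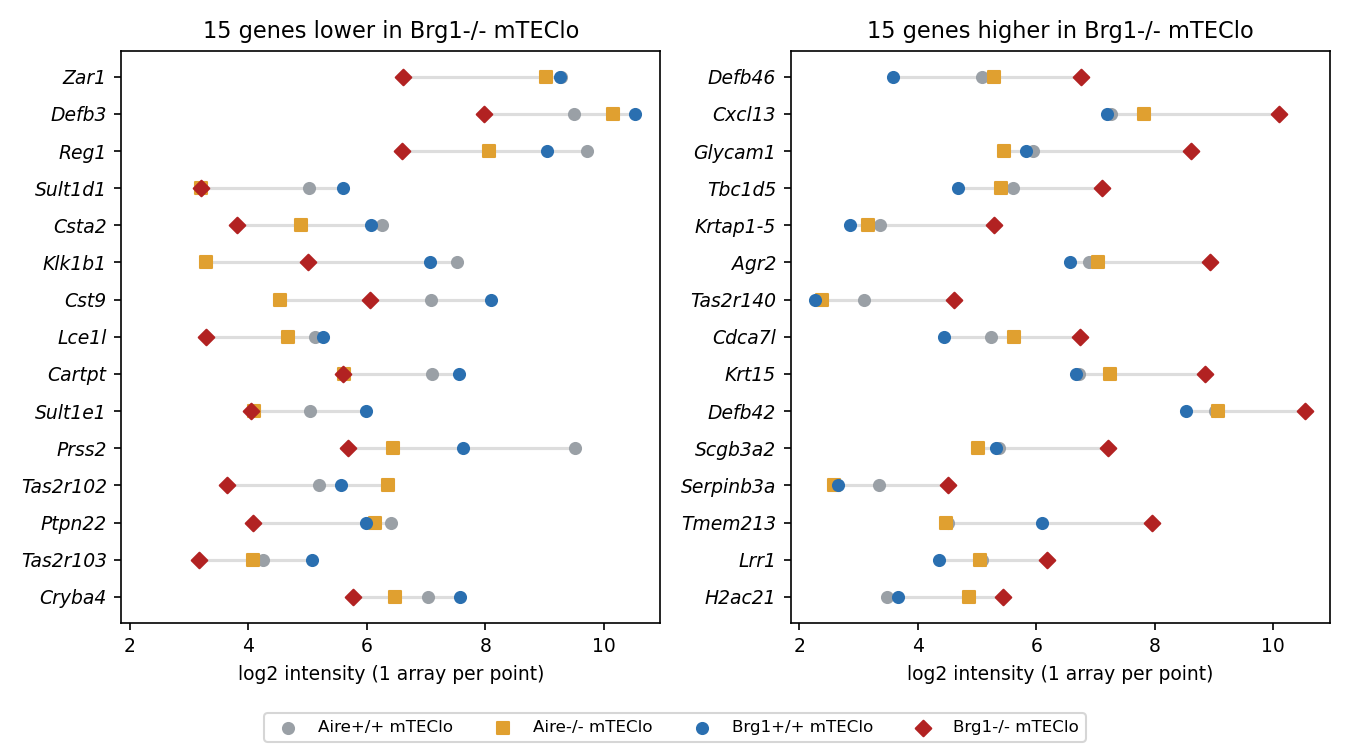
log2 intensity (x axis) of the 15 named genes lower (left) and the 15 higher (right) in Brg1-/- mTEClo, with 1 point for each of the 4 mTEClo arrays and a grey line over their range. All 15 higher genes have the Brg1-/- array at the top, while for 3 of the lower genes, among them Klk1b1 and Cst9, the Aire-/- array is as low or lower.

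The named genes lower in Brg1-/- mTEClo included products of oocytes, the exocrine pancreas, glands, skin, lens and the nervous system. Zar1, an oocyte protein needed after fertilisation, was at 9.26 in Brg1+/+, 9.28 in Aire+/+ and 9.02 in Aire-/- mTEClo and at 6.61 in Brg1-/- mTEClo. Its 4 mTEChi values in the Brg1 line were 10.98 and 10.51 in Brg1+/+ and 10.43 and 10.24 in Brg1-/-, which do not overlap but are close. Zar1 was thus high on 11 arrays and low on 1, by a difference of -2.65 (limma SE 0.368, adjusted p = 1.0; largest replicate difference 0.47).

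Reg1, a secreted lectin of the exocrine pancreas, was at 9.04 in Brg1+/+, 9.71 in Aire+/+ and 8.07 in Aire-/- mTEClo and at 6.59 in Brg1-/- mTEClo, a difference of -2.45 from Brg1+/+. Prss2, a trypsinogen made by the same tissue, was at 7.62, 9.51 and 6.44 on those 3 arrays in the same order and at 5.68 in Brg1-/-, a difference of -1.94. Both had their lowest mTEClo value in Brg1-/- and their next lowest in Aire-/-. In mTEChi, Reg1 differed by -0.21 and -0.86 in the array pairs numbered 1 and 2, and Prss2 by -1.48 and 0.18.

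Cartpt, the precursor of a neuropeptide, was at 7.56 in Brg1+/+ and 7.10 in Aire+/+ mTEClo and at 5.60 in Brg1-/- and 5.62 in Aire-/- mTEClo. Cst9, a cystatin, was at 8.10 and 7.09 in these wild types, at 6.06 in Brg1-/- and at 4.54 in Aire-/-. Klk1b1, a glandular kallikrein, was at 7.06 and 7.53 in the wild types, at 5.0 in Brg1-/- and at 3.28 in Aire-/-. For these genes the values of both knockout arrays lay below both wild types.

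Sult1d1 and Sult1e1, neighbouring sulfotransferase genes on chromosome 5, of which the latter inactivates oestrogens, also had low values on both knockout arrays. Sult1d1 was at 5.60 in Brg1+/+, 5.02 in Aire+/+, 3.20 in Brg1-/- and 3.20 in Aire-/- mTEClo. Sult1e1 was at 5.99, 5.04, 4.04 and 4.10 on the same arrays. Of the 15 named lower genes 13, and of the 15 higher ones 7, had the same sign in Aire-/- against Aire+/+ mTEClo. The Aire+/+ array also took part in choosing these genes, which favours the same sign, so these counts support nothing.

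The other named lower genes were Defb3, Csta2, which belongs to the stefin inhibitors of cysteine proteases, Lce1l, a late cornified envelope gene, Cryba4, a lens crystallin, the bitter taste receptors Tas2r102 and Tas2r103, and Ptpn22, a phosphatase that restrains antigen receptor signalling in lymphocytes. Their differences ran from -2.54 for Defb3 to -1.82 for Cryba4. Ptpn22 was at 5.99, 6.41 and 6.13 in Brg1+/+, Aire+/+ and Aire-/- mTEClo and at 4.08 in Brg1-/- mTEClo. Of the 16 measured thymocyte markers 0 were beyond the replicate range, and their median level was 5.36 and 5.29 on the Brg1+/+ and Brg1-/- arrays.

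The genes higher in Brg1-/- mTEClo included a chemokine, mucosal secretory products and a basal keratin. Cxcl13, the chemokine that draws B cells, was at 7.19, 7.26 and 7.82 in Brg1+/+, Aire+/+ and Aire-/- mTEClo and at 10.10 in Brg1-/- mTEClo. Its mTEChi values in the Brg1 line were 10.47 and 8.70 in Brg1+/+ and 10.76 and 9.59 in Brg1-/-. In mTEClo the Brg1-/- array stood alone, by a difference of 2.91 from Brg1+/+, at a level within the mTEChi range. The limma SE was 1.17, or 0.317 with the replicate number as a block, and the largest replicate difference was 1.77.

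Glycam1, a mucin-like ligand of L-selectin that is also a milk protein, was at 5.83, 5.94 and 5.45 on the same 3 arrays and at 8.62 in Brg1-/- mTEClo, a difference of 2.79. Its mTEChi values in the Brg1 line lay between 6.65 and 7.79, so the Brg1-/- mTEClo array was above all of them. Agr2, a disulfide isomerase of mucus-secreting cells, was at 6.57, 6.89 and 7.04 on the 3 arrays and at 8.93 in Brg1-/- mTEClo. That was also above its mTEChi range in the Brg1 line, 6.20 to 7.51. Both genes were higher on the Brg1-/- mTEClo array than on any other array of the Brg1 line.

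Krt15, a keratin of basal and stem-like keratinocytes, was at 6.68, 6.72 and 7.24 on the 3 arrays and at 8.84 in Brg1-/- mTEClo. Krt6a, a keratin of activated keratinocytes, was at 5.92, 4.84 and 5.14 and at 7.35 in Brg1-/- mTEClo. Aqp5, the water channel of gland cells, was at 6.87, 6.10 and 7.04 and at 8.49 in Brg1-/- mTEClo. In each case the Brg1-/- array was the highest of the 4.

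The other named higher genes were Defb46 and Defb42, Tbc1d5, a GTPase-activating protein for Rab proteins, Krtap1-5, a hair keratin-associated protein, the bitter taste receptor Tas2r140, Cdca7l, Scgb3a2, a secretoglobin of airways, Serpinb3a, Tmem213, Lrr1 and H2ac21, a histone H2A gene. Their differences ran from 1.78 for H2ac21 to 3.18 for Defb46. Averaged over its probe sets in place of the brightest one, Tbc1d5 differed by 1.23 rather than 2.43 and H2ac21 by 0.97. Of the 15, 4 were below the array median on both arrays of the comparison, as were 2 of the 15 lower genes, and no detection call was used, so the lowest level above background is not known. In limma with the replicate block, adjusted p-values ran from 0.198 to 0.881 over the 15 lower genes and from 0.184 to 0.822 over the 15 higher ones.

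Genes of beta-defensins, small antimicrobial peptides of epithelia, lay on both sides of the comparison, as a pair of neighbouring members shows. Defb3 was at 10.52 in Brg1+/+ and 7.98 in Brg1-/- mTEClo, with 9.49 and 10.15 in Aire+/+ and Aire-/-. Defb46 was at 3.58 in Brg1+/+ and 6.76 in Brg1-/- mTEClo, with 5.09 and 5.28 in Aire+/+ and Aire-/-. For Defb3 the knockout array lay furthest from the others, and for Defb46 both Brg1-line arrays lay apart on opposite sides.

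The promoter windows of Defb3 and Defb46 (250 bases before to 50 after the annotated start, RefSeq, GRCm38.p6) begin 53.4 kb apart on chromosome 8 and were identical at 79.1% of 321 aligned positions. They are shown with those of Cxcl13 and Reg1, the chemokine and the pancreatic gene described above. Each lies on the plus strand and reads 5′ to 3′. Capitals mark TATAAA or its reverse complement TTTATA.
Defb3, chr8:19293111-19293410: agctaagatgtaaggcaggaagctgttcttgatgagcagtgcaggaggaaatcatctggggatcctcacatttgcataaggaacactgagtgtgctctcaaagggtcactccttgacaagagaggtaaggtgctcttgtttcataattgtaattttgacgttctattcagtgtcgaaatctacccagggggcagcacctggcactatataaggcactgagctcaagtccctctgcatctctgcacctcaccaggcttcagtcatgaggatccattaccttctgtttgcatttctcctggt
Defb46, chr8:19239666-19239965: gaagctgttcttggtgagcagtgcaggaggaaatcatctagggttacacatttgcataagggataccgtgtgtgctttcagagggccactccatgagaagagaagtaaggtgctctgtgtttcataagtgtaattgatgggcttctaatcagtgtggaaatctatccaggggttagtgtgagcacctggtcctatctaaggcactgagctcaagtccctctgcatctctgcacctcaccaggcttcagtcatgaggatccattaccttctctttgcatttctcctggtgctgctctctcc
Cxcl13, chr5:95956689-95956988: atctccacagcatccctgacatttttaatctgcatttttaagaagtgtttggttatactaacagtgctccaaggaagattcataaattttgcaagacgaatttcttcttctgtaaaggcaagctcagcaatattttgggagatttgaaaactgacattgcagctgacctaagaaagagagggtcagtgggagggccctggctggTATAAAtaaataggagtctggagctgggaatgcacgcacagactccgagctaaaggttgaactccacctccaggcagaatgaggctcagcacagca
Reg1, chr6:78425733-78426032: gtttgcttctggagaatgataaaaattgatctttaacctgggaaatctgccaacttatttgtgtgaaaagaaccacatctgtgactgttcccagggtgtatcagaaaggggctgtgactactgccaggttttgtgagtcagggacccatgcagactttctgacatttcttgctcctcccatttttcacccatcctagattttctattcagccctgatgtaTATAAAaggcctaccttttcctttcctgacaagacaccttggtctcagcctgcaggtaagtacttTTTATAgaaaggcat

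TATAAA on either strand was present in neither defensin window, whereas in Cxcl13 it began 46 bases before the start and in Reg1 30 bases before it. It was found in 4 of the 15 lower genes (26.7%) and in 5 of the 13 higher genes with a window (38.5%), against 13.6% of 32851 windows. CCAAT on either strand was found in 20.0% and 61.5%, against 37.4%. The median number of CG dinucleotides was 2 and 3 per window, against 7. These are counts of letters in a window and say nothing of binding.

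Over all 42 measured beta-defensins, 3 were lower and 4 higher beyond the replicate range, beside 0.948% and 1.07% of all genes, and the median difference was -0.06. Defb19 and Defb45 were lower, both by -1.73, and Defb2, Defb8 and Defb42 were higher, by 2.27, 2.15 and 2.02. Except for Defb42, the Brg1-/- array was less than 2-fold from Aire+/+ mTEClo in these genes, and Brg1+/+ was more than 2-fold from it. Defb19, Defb45, Defb2 and Defb8 were at 6.31, 4.82, 6.43 and 5.94 in Brg1-/- and at 6.80, 5.51, 5.58 and 6.25 in Aire+/+. In Brg1+/+ mTEClo they were at 8.04, 6.55, 4.16 and 3.79. Defb42 was bright, at 8.52, 9.01 and 9.06 in Brg1+/+, Aire+/+ and Aire-/- mTEClo and at 10.54 in Brg1-/- mTEClo, and its mTEChi values were 9.72 and 9.52 in Brg1+/+ and 10.58 and 10.93 in Brg1-/-. The Brg1 genotypes did not overlap in mTEChi. In the Aire line it was at 9.84 and 9.66 in Aire+/+ and at 10.84 and 11.02 in Aire-/- mTEChi, as high as in Brg1-/-.

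Kallikreins and alpha-defensins are families of near-identical genes with several members lower. Of 11 measured Klk1b kallikreins, 4 were lower and 0 higher (0.948% and 1.07% over all genes), with a median of -0.88 and 8 members below 0: Klk1b1, Klk1b24, Klk1b16 and Klk1b5, by -2.06, -1.71, -1.16 and -1.05. Of 10 alpha-defensins, the antimicrobial peptides of Paneth cells, 4 were lower and 0 higher, beside the same shares over all genes, with a median of -0.86: Defa39, Defa22, Defa21 and Defa35, by -1.99, -1.40, -1.28 and -1.05. Defa22 was at 8.50 in Brg1+/+ and 7.10 in Brg1-/- mTEClo, and at 7.46 in Aire+/+ and 3.82 in Aire-/- mTEClo. For all 4 of these alpha-defensins the Brg1-/- array was less than 2-fold below Aire+/+ mTEClo, and Brg1+/+ was the highest of the 4 mTEClo arrays. Other families lay on both sides. Small proline-rich and late cornified envelope genes had 3 lower and 2 higher of 30. Genes with symbols beginning with Cst or Stfa, a group not limited to cystatins and stefins, had 2 lower and 1 higher of 28. The higher one, Csta3, was at 1.80 in Brg1+/+ and between 4.41 and 6.56 on the other mTEClo arrays, so there the wild type was apart. Probe sets of such families can share signal, so these counts are not counts of independent genes, and the families were picked after their values were seen.

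Bitter taste receptors, which mark tuft cells in part, showed 2 lower and 4 higher members of 37, beside 0.948% and 1.07% of all genes, with a median of -0.10. Tas2r102 was at 5.56, 5.20 and 6.35 in Brg1+/+, Aire+/+ and Aire-/- mTEClo and at 3.64 in Brg1-/-. Tas2r103 was at 5.08, 4.25 and 4.08 on those arrays and at 3.17 in Brg1-/-. Tas2r140 was at 2.27, 3.09 and 2.39 and at 4.62 in Brg1-/-. These are levels near or below the array medians. Tas2r106 was higher as well, at 7.73 against 5.51, but at 7.04 and 7.03 on the Aire-line arrays, which the Brg1-/- array exceeded by less than 2-fold.

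Among 32 lists of genes by function or cell type, 19 had no member beyond the replicate range, and list medians lay between -0.26 and 0.32 against -0.01 over all genes. The pancreas list had 4 of 19 members lower and 0 higher, with a median of -0.18, beside 0.948% of all genes lower. Its lower members were Reg1, Prss2 and the hormone genes Pyy and Ppy, by -1.66 and -1.21. Pyy was at 9.08 in Brg1+/+ and between 7.42 and 7.64 on the other 3 mTEClo arrays, so there the wild type was apart. Ppy was at 8.67 in Brg1+/+ and 7.46 in Brg1-/-, beside 7.89 and 6.53 in Aire+/+ and Aire-/- mTEClo. Its Brg1-/- value was thus less than 2-fold below Aire+/+. The hormone gene Sst differed by -0.83 and the protease gene Ctrb1 by -0.69, both within the replicate range.

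The list for intestine and stomach had 4 lower and 1 higher of 26 members, beside 0.948% and 1.07% of all genes, with a median of -0.24. Spink4, a protease inhibitor of goblet cells, was at 8.35, 8.31 and 7.07 in Brg1+/+, Aire+/+ and Aire-/- mTEClo and at 6.61 in Brg1-/-. Fabp2, the fatty acid binding protein of enterocytes, was at 7.50, 8.35 and 6.96 on those arrays and at 6.22 in Brg1-/-. In both, Brg1-/- was lowest and Aire-/- next. The other lower members were the alpha-defensins Defa22, given above, and Defa21, at 8.28, 7.64 and 4.39 on those arrays and at 7.0 in Brg1-/-, so there Aire-/- was far lower. Tff2, a trefoil peptide of gastric mucus, went the other way, at 8.25, 8.92 and 8.41 and at 9.98 in Brg1-/-.

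The tissue lists that follow are read against 0.948% of all genes lower and 1.07% higher. The liver list had the lowest median, -0.26, and 1 lower member of 20. This was Ttr, the thyroxine carrier transthyretin, at 6.92, 7.64 and 6.32 in Brg1+/+, Aire+/+ and Aire-/- mTEClo and at 5.70 in Brg1-/-. The fibrinogen genes Fgg and Fgb differed by -1.20 and -0.84 and lay within the replicate range. In the list for salivary, lacrimal and mammary gland, 1 of 22 members was higher (Aqp5) and 0 lower, while the milk protein gene Csn2 differed by -0.84 and the salivary gene Dcpp3 by -0.79. The lists for muscle and for testis and oocyte had no member beyond the range among 18 and 17, and that for brain, retina and lens had 1 higher of 24, the retinal arrestin gene Sag, by 1.05.

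Lists that describe the epithelial cell itself are read against 0.948% of all genes lower and 1.07% higher. SWI/SNF subunits other than the ATPases showed 0 of 24 beyond the range, with a median of 0.06, and the second ATPase, Smarca2, was at 7.49 and 7.60 in Brg1+/+ and Brg1-/- mTEClo. In the mTEC maturation list, 1 of 18 members was lower. This was Ccl17, a chemokine that binds Ccr4, at 7.60, 7.74 and 6.61 in Brg1+/+, Aire+/+ and Aire-/- mTEClo and at 6.26 in Brg1-/-. Among chemokine ligands, Cxcl5 was also lower, by -1.05, and Cxcl13 was the higher one, so 2 were lower and 1 higher of 26. Cxcl5 was at 7.35 in Brg1+/+ and 6.30 in Brg1-/-, beside 6.71 and 5.82 in Aire+/+ and Aire-/- mTEClo. Its Brg1-/- value was thus less than 2-fold below Aire+/+.

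Other lists of the epithelial cell and its signalling had at most 1 member beyond the range. In the list for MHC class II presentation, the thiol reductase gene Ifi30 was higher, at 9.72 in Brg1+/+ and 10.79 in Brg1-/- mTEClo beside 10.08 and 10.15 in Aire+/+ and Aire-/-. Among immediate early and heat shock genes, 1 of 25 members was lower, the chaperone gene Hsph1, at 7.14 in Brg1+/+ and 5.91 in Brg1-/-, but at 6.19 and 6.13 on the Aire-line arrays, so there too the wild type was apart. In the list for mTEClo, progenitor and Ccl21-type cells, Krt15, described above, was the 1 higher of 16 members, with a median of 0.06. Interferon response genes had 0 of 26 beyond the range and a median of 0.21, with Stat2 and Mx2 at differences of 0.93 and 0.88. The lists for cortical epithelium, epithelial identity, MHC class I, NF-kB and TNF receptors, the p53 response, extracellular matrix and other remodelling ATPases had 0 members beyond the range, with medians from -0.23 to 0.12.

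Tuft cell genes had a median of -0.20 with 0 of 23 beyond the range, and their key factor Pou2f3 was at 4.44 and 4.75. The lists for microfold cells, cornified keratinocytes and neuroendocrine or ciliated cells also had 0 members beyond the range among 13, 25 and 21. Cytokeratins had the highest median, 0.32, with Krt15 and Krt6a as 2 higher of 17, beside 1.07% of all genes. Members above 0 were 13, beside 10570 of all 22154 genes. The same list had medians of 0.21 and -0.43 in the mTEChi pairs numbered 1 and 2, so those pairs differed in sign.

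Genes of the cell cycle had a median of 0.17, or 0.59 when genes below 6 on all arrays were left out. Beside 1.07% of all genes, 1 of the 28 members was higher. That was Birc5, an inhibitor of apoptosis made in mitosis, at 3.64 in Brg1+/+ and 5.22 in Brg1-/- mTEClo, beside 4.30 and 3.85 in Aire+/+ and Aire-/-. Rrm2, a ribonucleotide reductase subunit, was at 6.24 and 7.85, beside 5.36 and 5.72, and its difference of 1.61 lay within the largest replicate difference of 1.89. Cdk1, Ccna2 and Cdc20 differed by 0.99, 0.95 and 0.93, within their replicate differences too.

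Markers of other cells were also compared. The lists for thymocytes, for dendritic cells, macrophages and B cells, and for fibroblasts and endothelium had 0 members beyond the replicate range among 16, 17 and 18, with medians of 0.0, 0.02 and 0.10. Cd3d was at 6.28 and 7.11 in Brg1+/+ and Brg1-/- mTEClo, within its replicate difference of 2.49. Ptprc, which encodes CD45, was at 6.07 and 6.11. Dcn, a fibroblast proteoglycan, was at 9.94 and 10.92, and Psmb11, the thymoproteasome subunit of cortical epithelium, at 5.80 and 6.79, both short of 2-fold. Psmb11 had the highest difference of the cortical list, whose median was -0.23 with 9 of 14 members below 0. The part of such cells in the other differences was not tested. In bulk RNA fewer cells of a type and less RNA per cell cannot be told apart.

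**Figure D4:**
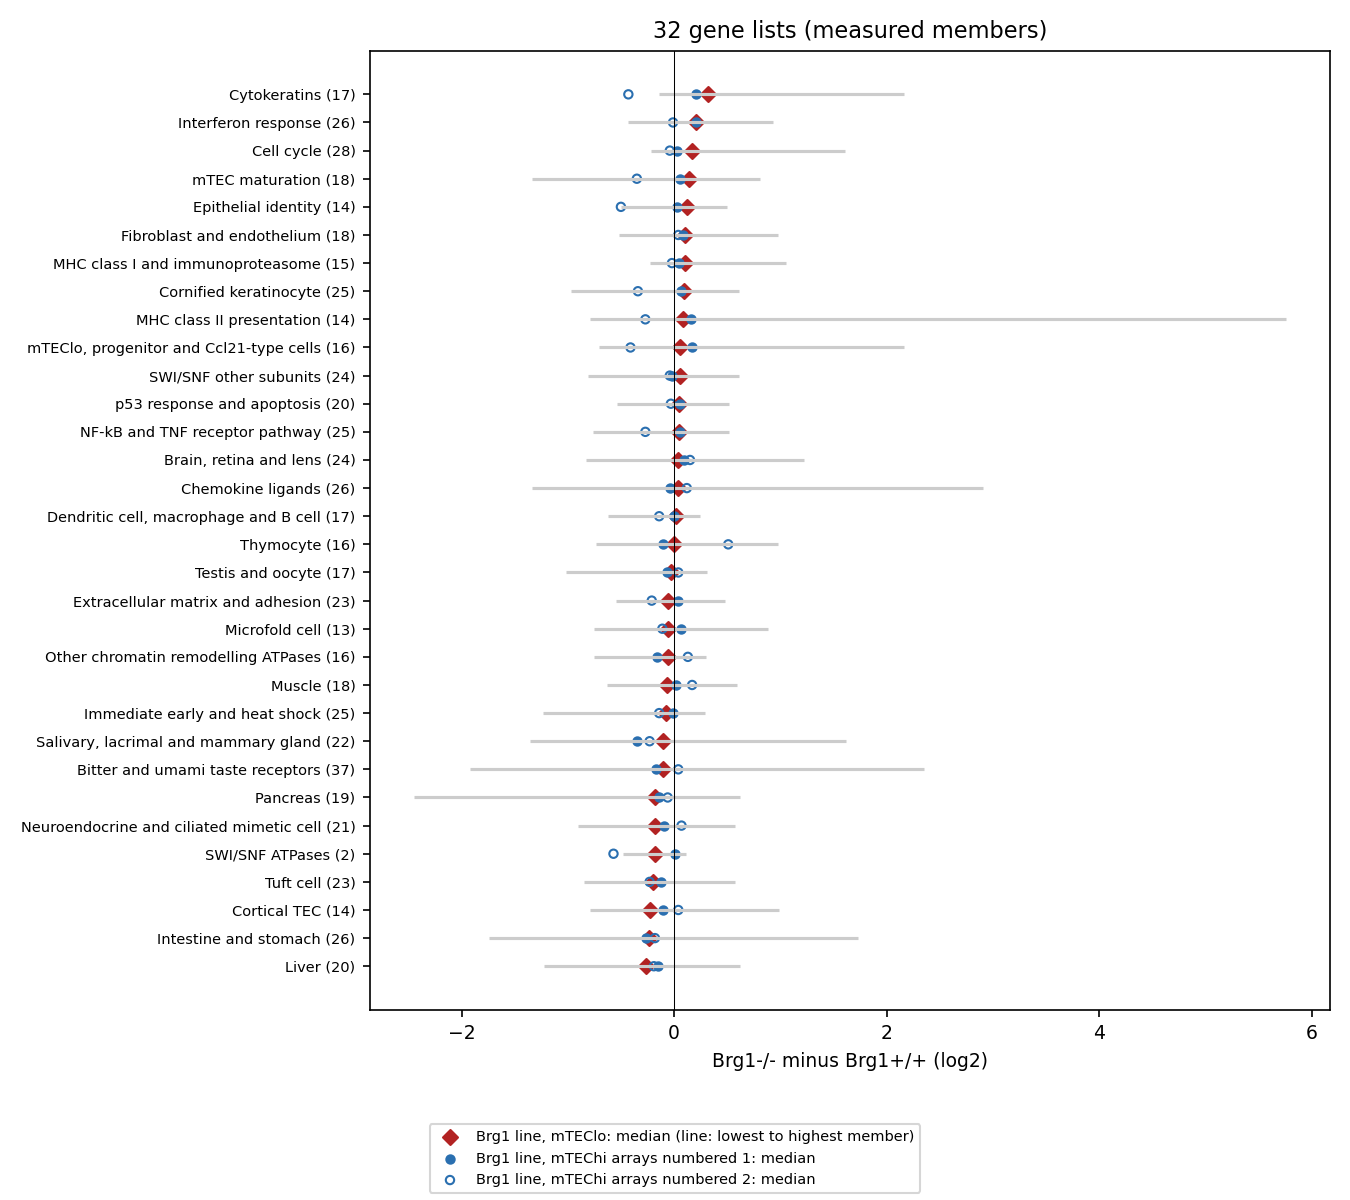
Median difference between Brg1-/- and Brg1+/+ (x axis, log2) of 32 gene lists (y axis, measured members in brackets): red diamonds for the mTEClo arrays with a grey line from the lowest to the highest member, blue points for the mTEChi array pairs numbered 1 (filled) and 2 (open). All medians in mTEClo lie between -0.26 and 0.32.

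A set of Aire-dependent genes was taken from arrays that enter the replicate range but not the mTEClo difference. It held 225 genes at least 4-fold lower in Aire-/- than in Aire+/+ mTEChi in both same-numbered pairs. Their median difference in Brg1-/- against Brg1+/+ mTEClo was -0.36, against -0.01 over all genes. At least 2-fold lower were 54 (24.0%) and higher 14 (6.22%), beside 1.27% and 1.47% of all genes. Their median level was 5.57 in Brg1+/+, 5.11 in Brg1-/-, 5.39 in Aire+/+ and 4.73 in Aire-/- mTEClo, so the Brg1-/- array lay between the wild types and Aire-/-. In the mTEChi pairs of the Brg1 line the median was -0.44 for number 1 and 0.03 for number 2.

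The choice of wild type moved this value. Against Aire+/+ mTEClo the median was -0.16, with 39 genes 2-fold lower and 17 higher, and the Brg1+/+ array itself stood 0.27 above Aire+/+ at the median. Of the 210 lower genes, 40 (19.0%) were among the 225, which is 17.8% of them, and of the 237 higher genes 10 (4.22%) were, which is 4.44%. All genes hold 1.02% of such members. The Aire-line mTEChi arrays that chose the 225 also enter the replicate range that chose the 210 and 237. These shared members are therefore not an overlap of independent choices.

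The 12 Aire-dependent genes that were brightest in Aire+/+ mTEClo, a choice that uses neither array of the comparison, give single values. Of these, 11 were lower in Brg1-/- than in Brg1+/+ mTEClo, beside 11299 of all 22154 genes, and their median was -0.48. The 2 that differed 2-fold were Reg1 and Oog1, an oocyte gene. Oog1 was at 9.53, 8.99 and 9.49 in Brg1+/+, Aire+/+ and Aire-/- mTEClo and at 7.90 in Brg1-/-. The trefoil peptide genes Tff3 and Tff1 differed by -0.36 and -0.01, and the calprotectin subunit gene S100a9 by -0.39. Reg3b, an antimicrobial lectin, was the exception, at 7.49 in Brg1+/+ and 8.11 in Brg1-/-, while Aire+/+ was at 11.15 and Aire-/- at 7.11. For Reg3b both Brg1-line arrays therefore resembled Aire-/- more than Aire+/+ mTEClo. The choice of wild type mattered for these 12 genes too. Against Aire+/+ mTEClo, which also chose them, Brg1-/- was higher for Tff1, Lce3a, Dcpp2 and S100a9 and lower for the rest.

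**Figure D5:**
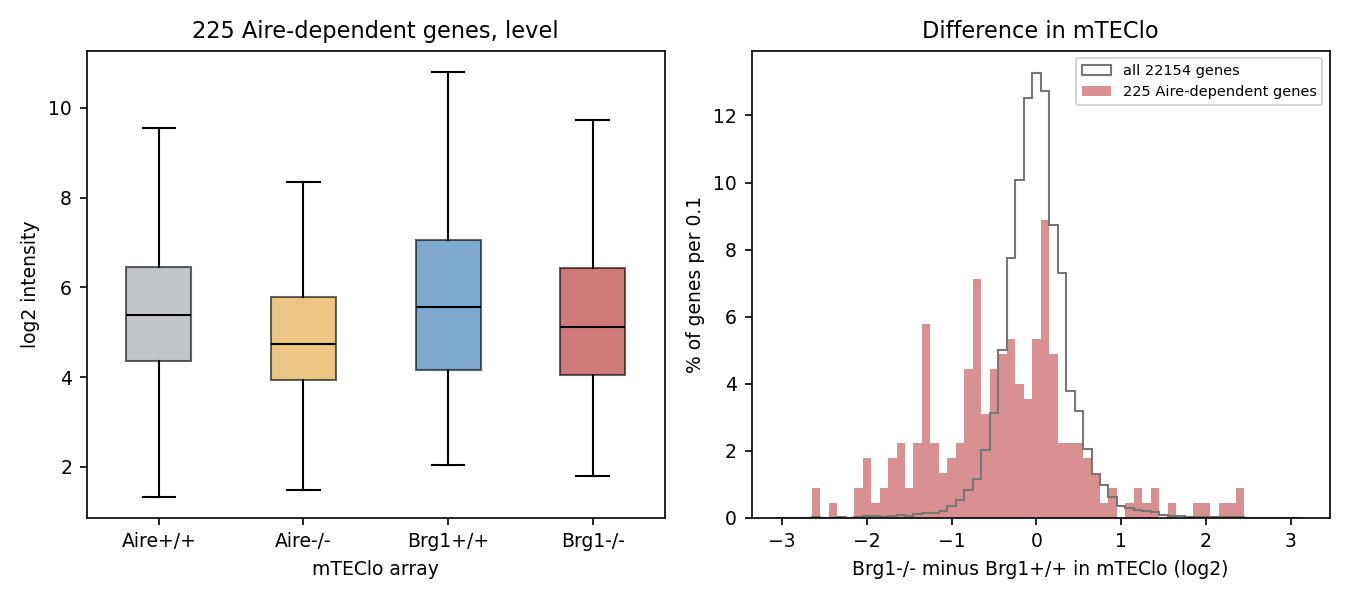
Left, log2 intensity (y axis) of the 225 Aire-dependent genes on each of the 4 mTEClo arrays (x axis), with boxes between the outer quartiles, a line at the median and whiskers of the usual length. Right, percent of genes (y axis) per 0.1 of the difference between Brg1-/- and Brg1+/+ mTEClo (x axis, log2) for these 225 (red) and all 22154 genes (grey outline). The 225 spread further to the left, with a median of -0.36.

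Genes high in the mature fraction showed a smaller shift of the same sign. The 392 genes at least 4-fold higher in Aire+/+ mTEChi than in Aire+/+ mTEClo, both numbered 1, had a median of -0.22. Beside 1.27% and 1.47% of all genes, 76 of these (19.4%) were 2-fold lower and 20 (5.1%) higher. Their median level was 5.45 in Brg1+/+, 5.17 in Brg1-/-, 5.15 in Aire+/+ and 4.96 in Aire-/- mTEClo. Against Aire+/+ mTEClo the median was 0.03, so for this set the sign rested on which wild type was used, with the caution that Aire+/+ mTEClo also chose the set. The 836 genes at least 2-fold higher in Aire+/+ mTEClo than mTEChi had a median of 0.08. Of these, 23 (2.75%) were lower and 47 (5.62%) higher, beside the same shares of all genes. Against Aire+/+ mTEClo, which also chose this set, the median was -0.32, with 102 lower and 8 higher, so the sign turned here too.

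The differences in mTEClo were compared with those in the mature fraction, which uses other arrays, though these also set the replicate range. limma on the difference between the fractions called 0 genes (0.0%), with 296 at an unadjusted p under 0.05 and a smallest adjusted p of 1.0. Over genes, the mTEClo difference correlated with that of the mTEChi pairs at r = 0.064 for number 1 and r = 0.009 for number 2, and with Aire-/- against Aire+/+ mTEClo at r = -0.032. Genes are not independent replicates, and these values are descriptions.

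Of the 210 lower genes, 60 (28.6%) had a negative difference in both mTEChi pairs, against 24.3% of all genes lower in mTEClo. Of the 237 higher genes, 85 (35.9%) were above 0 in both, against 24.8%. Cxcl13 was among the latter, by 0.29 and 0.89, as was Aqp5, by 0.85 and 0.39. In pair number 1 alone, 61.4% of the 210 were negative, against 47.7% of all lower genes, and in number 2 47.6%, against 50.5%. For the 237, 58.2% were above 0 in number 1, against 54.1%, and 55.3% in number 2, against 46.8%. The mTEChi arrays also set the replicate range that chose the 210 and 237, the named genes included. These shares are therefore not independent of that choice. Of the 15 named lower genes 8, and of the 15 higher 9, had the sign of mTEClo in both mTEChi pairs. Zar1, with the largest difference among the named lower genes in mTEClo, differed by -0.74 and -0.08 in the mTEChi pairs, and Defb46, with the largest among the higher ones, by -0.97 and 0.0.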

How the data were processed

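The authors deposited 1 linear intensity for each of 33732 probe sets on each of 12 Affymetrix arrays, and the submitters' processing notes name Transcriptome Analysis Console, Affymetrix Expression Console and RMA, without versions or order. Every deposited intensity equals 2 to a power with 2 decimals. Values were taken as log2 with no pseudocount. The platform annotation gave 23491 probe sets 1 symbol, 1811 several and 8430 none. The brightest probe set stood for a gene, which set 1337 aside, and symbols were matched to RefSeq GRCm38.p6 for 21968 of 22154 genes.

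Samples were grouped by labelled genotype, fraction and replicate number into 8 groups and fitted as group means in limma 3.58.1 (R 4.3.3, lmFit and eBayes, two-sided, Benjamini-Hochberg over all genes), with 4 residual and 3.46 prior degrees of freedom. Replicate numbers pair the samples: the differences between arrays 1 and 2 correlated over genes at r = 0.552 to 0.657 in all 6 pairs of mTEChi groups. A fit blocked on that number, separately in either line, had 2 residual and 5.14 prior degrees of freedom. The fit was also run on simulated arrays with independent noise. They held no shift shared by replicate number, so that run does not show how the fit behaves with such a shift.

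The comparison, its gene lists and the families were chosen with earlier results of these data known. The named genes are Smarca4, Aire, the 15 largest differences each way under the rule given in the text, and up to 6 members of each list with the largest differences. Predicted genes, clone names, small RNAs and olfactory, vomeronasal and sex-linked check genes were left out. Genes named beyond that were chosen after their values were seen.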

Additional observations from a re-analysis of the deposited data

Results flagged for a closer look

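For 3 of the named genes the mTEClo difference and the mTEChi arrays of the Brg1 line pointed opposite ways, with every Brg1-/- mTEChi array on the other side of every Brg1+/+ mTEChi array. Tas2r102, a bitter taste receptor, differed by -1.92 in mTEClo, while its mTEChi values were 3.09 and 3.13 in Brg1+/+ and 3.25 and 3.26 in Brg1-/-. Krtap1-5, a hair keratin-associated protein, differed by 2.42 in mTEClo, with 3.16 and 4.17 in Brg1+/+ and 3.15 and 2.91 in Brg1-/- mTEChi. Cdca7l differed by 2.30 in mTEClo, with 5.52 and 5.79 in Brg1+/+ and 5.23 and 5.18 in Brg1-/- mTEChi. The mTEChi pairs differed by 0.16 and 0.13 for Tas2r102, -0.01 and -1.26 for Krtap1-5, and -0.29 and -0.61 for Cdca7l. The largest replicate differences of these genes were 1.31, 1.01 and 0.58. The mTEChi values of Tas2r102 and Krtap1-5 lay below the array medians, so these reversals are small and at dim levels. In limma the difference between the fractions had an adjusted p of 1.0 for each.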

How the results depend on the processing

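The counts of genes beyond the replicate range, 210 lower and 237 higher, moved by over 1.5 times under 3 alternatives. A threshold of 4-fold left 22 and 27, a further 2-fold gap to Aire+/+ mTEClo left 57 and 69, and an offset of 16 added before log2, which compresses dim genes, gave 106 and 118, of which 100 and 112 were among the original genes. With the replicate block, where the pairing by number is removed from the replicate differences, the counts were 259 and 310, and leaving out the replicate pair of 1 mTEChi group in turn gave 216 to 224 and 249 to 259. limma called 0 genes for mTEClo and 0 for the difference between fractions in every alternative run, the replicate block and each left-out mTEChi array included. Of the alternatives for list medians 181 stayed within the spread between replicates, and 11 moved. Among the 181, the median had the other sign in 5, each in a different list whose reported median was near 0. The furthest was MHC class II presentation, at -0.16 against the mean of both wild types (0.08 as reported). For named genes 150 stayed and 10 moved, with 0 changing sign. Under the offset named genes moved toward 0, from Tas2r140 at 0.96 to Klk1b1 at -1.64 and Cdca7l at 1.70, and as a mean of its probe sets H2ac21 moved to 0.97. Tbc1d5 went from 2.43 to 1.23 under the same alternative, which counts among the 150. The pancreas median was -0.56 with dim genes left out and -0.52 against the mean of both wild types. The alternatives for the sets chosen on Aire-line arrays were added after seeing the data. Signal over background, not known here, limits all dim genes, and 1 array a side limits all values.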
